A study of Mus musculus with 4 samples.

Results

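The inflammasome genes described here are 10 mouse genes, chosen by their symbols: the sensors Nlrp3, Nlrc4, Nlrp1b, Naip2, Naip5 and Mefv, the adaptor Pycard, the caspases Casp1 and Casp4, and the pore-forming protein gene Gsdmd. All 10 had a row among the 55536 annotated genes of the tables. Inflammasomes are cytosolic assemblies in which a sensor that has met a microbial product or cell damage recruits caspase-1, often through the adaptor ASC, the product of Pycard. Caspase-1 cuts the precursors of interleukin 1β and interleukin 18 and also gasdermin D, whose freed end opens pores in the plasma membrane and leads to the lytic death called pyroptosis. In macrophages, Toll-like receptor stimulation is known to raise the RNA of Nlrp3 and Casp4 before a further signal assembles the complex.

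RNA was measured by polyA-selected RNA-seq in 4 libraries of bone-marrow-derived macrophages of C57BL/6J mice, which the labels number as biological replicates 1 to 4 of 1 group. The cells had 12 h of 100 ng/ml lipid A, the part of bacterial lipopolysaccharide that TLR4 binds, then 12 h of washout, and were collected before any restimulation had run (0 min). The agent is called lipoprotein A elsewhere in the labels, and sex and age were not collected. No untreated cells belong to the series, so none of the values is an effect of the pretreatment. The donor identifier is the same for all 4, so p-values here reflect only how these libraries scatter, which may be technical.

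Expected gene counts summed to 48875472 and 57126810 in replicates 3 and 4, against 25594340 and 27384162 in replicates 1 and 2. A count of 0 allows up to 0.0525 to 0.117 CPM (3 counts per library, counting error only). The deposited notes list 4 read files each for replicates 3 and 4 and 6 each for replicates 1 and 2, and what that difference stands for is not given in the sources used here. The mitochondrial share of counts was 3.34% and 3.00% in replicates 3 and 4, against 0.778% and 1.16% in replicates 1 and 2. All 8 listed macrophage markers had a mean of at least 100 TPM (a level scaled for transcript length and library depth), with a list median of 645 TPM. The 10 neutrophil markers summed to 90.1 and 13.4 TPM in replicates 3 and 4, against 97.1 and 20.8 TPM in replicates 1 and 2, with Ly6g and Retnlg at 0 in every library. Dendritic, lymphoid and fibroblast markers summed to at most 5.16, 0.83 and 0.82 TPM.

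The promoter sequences of 5 windows are shown because they stand before the transcripts on which the levels below rest: the most abundant member, Casp1; Casp4 and Nlrp3, in which a κB consensus match lay before a start that the transcript tables share to within 1 nt; and both transcript starts of Nlrp1b. Each is the 250 bases upstream of a RefSeq transcript start on GRCm38.p6, 5′ to 3′ on the gene's strand, with matches to the κB consensus or to the PU.1 core GAGGAA (either strand) in capitals. Casp1 lies before its start at chr9:5298267-5298516 (plus strand), Casp4 at chr9:5308599-5308848 (plus strand), Nlrp3 at chr11:59541319-59541568 (plus strand), the distal Nlrp1b window at chr11:71230734-71230983 (minus strand) and the proximal one at chr11:71201457-71201706 (minus strand).
Casp1: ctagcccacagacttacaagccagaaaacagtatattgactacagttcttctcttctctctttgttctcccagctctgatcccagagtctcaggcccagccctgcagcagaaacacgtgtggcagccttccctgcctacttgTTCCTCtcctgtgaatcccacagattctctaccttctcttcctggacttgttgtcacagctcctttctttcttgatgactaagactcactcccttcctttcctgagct
Casp4: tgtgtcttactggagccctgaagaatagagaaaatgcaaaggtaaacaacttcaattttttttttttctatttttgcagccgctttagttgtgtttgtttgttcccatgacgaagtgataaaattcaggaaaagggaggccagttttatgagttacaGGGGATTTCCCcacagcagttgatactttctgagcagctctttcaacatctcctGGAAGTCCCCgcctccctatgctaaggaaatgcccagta
Nlrp3, upstream start: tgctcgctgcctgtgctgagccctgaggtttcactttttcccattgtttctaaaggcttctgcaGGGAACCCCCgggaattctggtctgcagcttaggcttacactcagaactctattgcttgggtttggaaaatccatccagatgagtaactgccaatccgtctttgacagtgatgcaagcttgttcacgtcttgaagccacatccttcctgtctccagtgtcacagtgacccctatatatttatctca
Nlrp1b, distal start: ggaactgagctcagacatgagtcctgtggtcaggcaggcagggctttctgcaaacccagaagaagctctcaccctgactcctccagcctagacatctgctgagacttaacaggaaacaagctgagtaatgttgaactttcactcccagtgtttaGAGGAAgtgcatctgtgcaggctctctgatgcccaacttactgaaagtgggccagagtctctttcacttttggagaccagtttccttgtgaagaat
Nlrp1b, proximal start: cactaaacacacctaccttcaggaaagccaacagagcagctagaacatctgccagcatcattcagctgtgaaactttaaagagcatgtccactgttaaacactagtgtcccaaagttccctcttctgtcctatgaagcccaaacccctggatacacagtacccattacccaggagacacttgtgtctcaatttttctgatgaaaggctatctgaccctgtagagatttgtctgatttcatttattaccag
The Casp4 window held κB matches from positions −93, −92 and −39 (−1 being the base before the start), the first pair of them overlapping, and the Nlrp3 window held one from −186, each counted at its leftmost base as printed. The PU.1 core was found from −108 before the Casp1 start and from −96 before the distal Nlrp1b start, and the proximal Nlrp1b window held neither motif. Promoter windows were at hand for 9 of the 10 genes, 12 windows in all, and κB matches fell in windows of 3 genes (Casp4, Nlrp3 and Naip5). PU.1 core matches fell in windows of 4 genes (Pycard, Casp1, the downstream start of Nlrp3 and Nlrp1b). None of the 12 windows held the interferon-stimulated response element core GAAANNGAA or the gamma-activated site TTCNNNGAA. Over 32851 windows of the same length, the κB consensus matched in 7.25%, the PU.1 core in 23.3%, the response element core in 7.13% and the gamma-activated site in 7.02%, so each match is a description of these letters and not a site.

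All 10 inflammasome genes were expressed in every library, and they spanned a wide range of levels. The executioner end of the pathway stood at the top: Casp1, Casp4 and Gsdmd had means above 100 TPM, while the sensors lay between 5.09 and 42.4 TPM. No gene fell under 1 TPM in any library, and 8 had a mean of at least 10 TPM. The highest mean was 68.2 times the lowest. In bulk RNA, fewer cells that express a gene and less RNA per cell cannot be told apart. The median over the 10 means was 34.5 TPM, beside 19.3 TPM over the 9797 protein-coding genes with at least 1 TPM in every library.

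**Figure D1:**
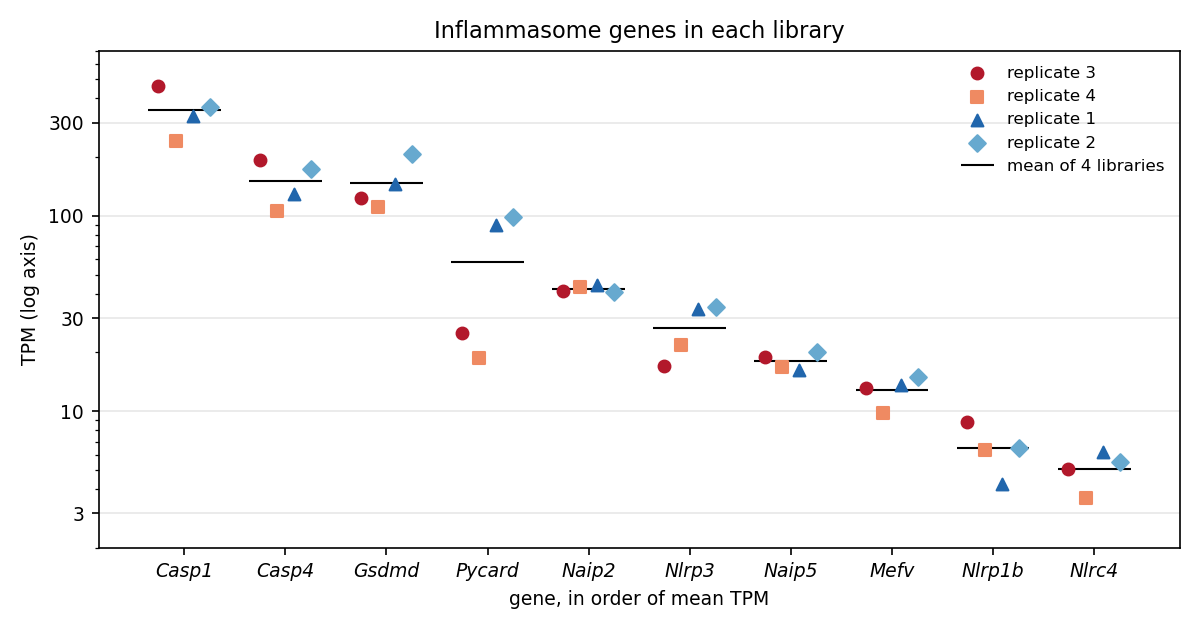
TPM of the 10 inflammasome genes (log axis) in each library, with genes in order of their mean (black line) and replicates 3 and 4 left of replicates 1 and 2. Casp1, Casp4 and Gsdmd stand above 100 TPM in every library, and Pycard is the gene whose library pairs lie farthest apart, at 25.12 and 18.73 TPM against 89.42 and 98.67 TPM.

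Among the sensors, Nlrp3, which answers potassium efflux and many kinds of membrane damage, had 17.03 and 21.91 TPM in replicates 3 and 4, against 33.27 and 34.02 TPM in replicates 1 and 2. The library pairs did not overlap. Its mean was 26.6 ± 8.43 TPM (SD, n = 4), higher than that of 58.9% of the expressed protein-coding genes. The gene lies at chr11:59541568-59566956 (mm10, plus strand), and 2 coding transcripts whose starts are 1118 nt apart carried most of its TPM. The short Nlrp3-203 held at most 0.94% in the first quantification. Nlrp3-201, from the upstream start whose promoter is printed above, took 54.1% and 46.7% in replicates 3 and 4, against 64.2% and 51.9% in replicates 1 and 2. In the second quantification (the kallisto-layout tables, against the RSEM-layout tables of all other values) it took 45.7% and 27.1%, against 50.9% and 41.4%. There Nlrp3-203 took 3.70% and 10.7%, against 25.2% and 12.5%. In both quantifications Nlrp3-201 led in replicate 1 and Nlrp3-202, from the downstream start, in replicate 4. In replicates 3 and 2 Nlrp3-202 led in the second quantification only (50.6% and 46.1%), so the major start there could not be settled from the tables.

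Nlrc4 and the NAIP proteins form 1 inflammasome, in which a NAIP binds the bacterial protein and NLRC4 then polymerises. Naip2, the receptor for the inner rod of type III secretion systems, had 41.41 and 43.4 TPM in replicates 3 and 4, against 44.22 and 40.63 TPM in replicates 1 and 2. The libraries overlapped, and the mean was 42.4 ± 1.68 TPM (SD, n = 4), a coefficient of variation of 3.95%. Naip5, a receptor for flagellin, had 18.9 and 16.87 TPM in replicates 3 and 4, against 16.24 and 19.99 TPM in replicates 1 and 2, a mean of 18.0 ± 1.75 TPM (SD, n = 4). Nlrc4 itself was the least abundant of the 10 genes by mean, at 5.07 and 3.6 TPM in replicates 3 and 4, against 6.2 and 5.49 TPM in replicates 1 and 2. These did not overlap, while those of the second quantification did. Its mean was 5.09 ± 1.10 TPM (SD, n = 4) and its gene lies at chr17:74425438-74459142 (mm10, minus strand). It lay below Naip5 in every library, with a mean log2 ratio of −1.66 ± 0.29 (SD, n = 4).

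Much of the NAIP transcript sequence is shared with other genes, so the NAIP levels may depend on how reads were split, which was not tested. Of the 31-letter words in Naip5 transcripts, 53.1% also occur in transcripts of other genes, 36.7% in Naip6, and for Naip2 the share was 32.8%, 21.1% with Naip1. Naip6, which like Naip5 binds flagellin, had a mean of 11.4 ± 1.20 TPM, and Naip1, which binds the needle protein of type III secretion systems, had 0.568 ± 0.374 TPM. The second quantification gave Naip2 41.9 and 44.8 TPM in replicates 3 and 4, against 31.8 and 29.7 TPM in replicates 1 and 2, so there its library pairs did not overlap, nor did those of Naip5. Casp1, which shares no such word, also stood lower there in replicates 1 and 2 (246 and 275 TPM against 326.05 and 361.15 TPM). In replicates 3 and 4 it had 465 and 244 TPM, against 459.41 and 242.8 TPM in the first quantification. For Naip2 the counts of the second quantification gave a log2 fold change of −0.02 ± 0.19 (SE). It also placed the Naip2 transcripts otherwise: Naip2-201 took 83.8% to 90.1% of the gene's TPM in the first quantification and 6.68% to 31.1% in the second, where Naip2-202 took 51.3% to 90.7%. Naip2-201 starts 4945 nt downstream of Naip2-202, and which start was used could not be settled from the tables. Naip2 (chr13:100144063-100202092) and Naip5 (chr13:100211739-100246323) lie 9646 nt apart in mm10, both on the minus strand.

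Nlrp1b, a sensor that in susceptible mouse strains is set off when anthrax lethal factor cuts it, had 8.86 and 6.32 TPM in replicates 3 and 4, against 4.26 and 6.45 TPM in replicates 1 and 2. The pairs overlapped, and the mean was 6.47 ± 1.88 TPM (SD, n = 4). In the second quantification it had 10.6 and 7.61 TPM in replicates 3 and 4, against 3.48 and 5.32 TPM in replicates 1 and 2, without overlap. The gene lies at chr11:71153102-71230733 (mm10, minus strand). Its transcripts began at 2 starts 29277 nt apart, those of the 2 printed promoter windows, in about equal shares. The distal start (71230733 on chromosome 11) took 49.8% and 62.5% of the TPM in replicates 3 and 4, against 53.5% and 48.2% in replicates 1 and 2, and the second quantification gave 48.4% and 59.3%, against 53.4% and 48.0%. Most of the TPM from the distal start belonged to Nlrp1b-205, annotated as a target of nonsense-mediated decay, which held 33.5% to 48.2% of the gene's TPM, and 43.1% to 50.6% in the second quantification. Of its words, 6.07% are shared, 4.62% with Nlrp1a, which had 2.71 ± 0.329 TPM, and the pseudogene Nlrp1c-ps had 1.14 ± 0.353 TPM.

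Mefv encodes pyrin, which responds when bacterial toxins switch off RhoA. It had 13.21 and 9.85 TPM in replicates 3 and 4, against 13.59 and 14.98 TPM in replicates 1 and 2. The values did not overlap, although replicates 3 and 1 were close and the second quantification's values overlapped, and the mean was 12.9 ± 2.18 TPM (SD, n = 4). The gene lies at chr16:3707218-3718097 (mm10, minus strand). All 3 of its transcripts are coding, and Mefv-201 held 46.7% to 68.5% of the TPM.

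Pycard, the adaptor that links pyrin-domain sensors to caspase-1, varied most of the 10 genes in TPM. It had 25.12 and 18.73 TPM in replicates 3 and 4, against 89.42 and 98.67 TPM in replicates 1 and 2, a ratio of 0.233 of the pair means. The pairs did not overlap, and the mean was 58.0 ± 41.9 TPM (SD, n = 4). The gene lies at chr7:127989708-127993867 (mm10, minus strand). Its counts moved far less: they were 2245 and 2462 in replicates 3 and 4, against 1629 and 1874 in replicates 1 and 2, or 45.9 and 42.7 normalized CPM against 71.2 and 61.7.

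Most of the TPM difference lay in 1 short transcript. Pycard-202 is 493 nt long and Pycard-201 is 3800 nt long. Pycard-202 had 7.25 and 1.61 TPM in replicates 3 and 4, against 67.04 and 75.2 TPM in replicates 1 and 2, from 59.5 and 15.1 expected counts against 277.7 and 331.6. Pycard-201 had 17.87 and 17.12 TPM in replicates 3 and 4, against 22.39 and 23.47 TPM in replicates 1 and 2. The second quantification drew the same contrast, with Pycard-202 at 10.6 and 6.22 TPM in replicates 3 and 4, against 68.7 and 74.3 TPM in replicates 1 and 2, while Pycard-201 had 17.7 and 16.9 TPM against 14.6 and 15.6 TPM. Because TPM divides by length, each count on the short transcript weighs more than one on the long transcript. Gm45205, a predicted gene on the opposite strand, overlaps Pycard and shares 12.0% of its words. Whether counting used strand is not stated, so reads of the overlapping genes cannot be told apart. Gm45205 had at most 0.17 TPM and 12.4 expected counts in any library.

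**Figure D2:**
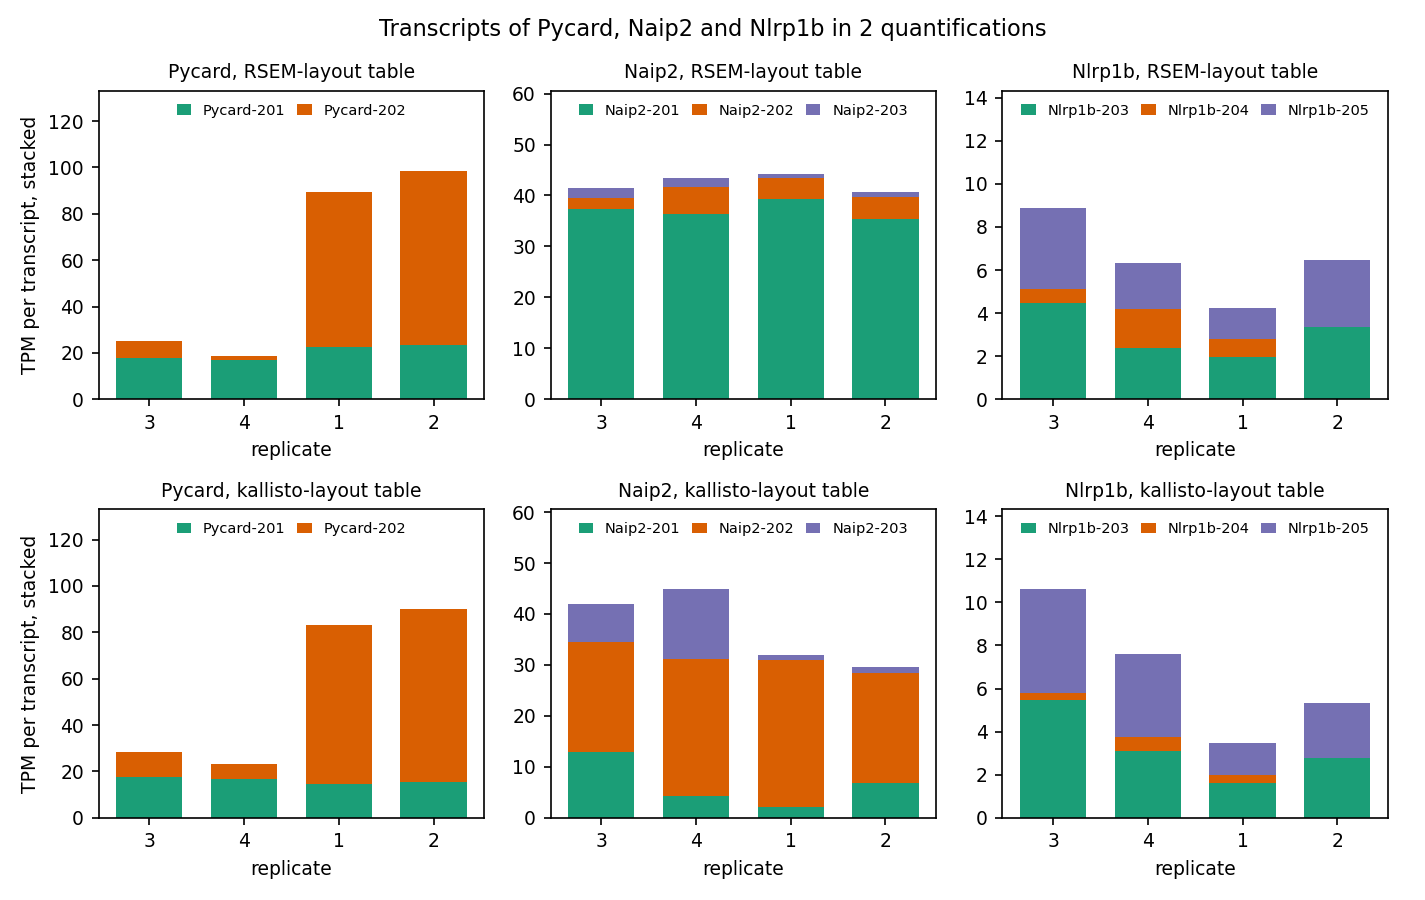
Stacked TPM of each transcript of Pycard, Naip2 and Nlrp1b in the RSEM-layout tables (top) and the kallisto-layout tables (bottom), with replicates 3 and 4 left of replicates 1 and 2. The short Pycard-202 fills most of the bar in replicates 1 and 2 only, the quantifications give Naip2 to different transcripts, and the transcripts Nlrp1b-204 and Nlrp1b-205 split the distal start otherwise in replicate 4, where Nlrp1b-205 has 33.5% in the upper panel and 50.6% in the lower one.

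Casp1, which encodes the caspase at the centre of the canonical inflammasome, was the most abundant of the 10 genes. It had 459.41 and 242.8 TPM in replicates 3 and 4, against 326.05 and 361.15 TPM in replicates 1 and 2, a mean of 347 ± 89.7 TPM (SD, n = 4). Replicate 3 was the highest and replicate 4 the lowest, so the pairs overlapped. The mean was above that of 96.0% of the expressed protein-coding genes. Casp1 lies at chr9:5298517-5307265 (mm10, plus strand), has 1 annotated transcript and shares no 31-letter word with another gene.

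Casp4 encodes mouse caspase-11, which binds cytosolic lipopolysaccharide and cuts gasdermin D directly, the non-canonical route. It had 192.93 and 106.17 TPM in replicates 3 and 4, against 128.96 and 174.7 TPM in replicates 1 and 2, again highest in replicate 3 and lowest in replicate 4, with a mean of 151 ± 40.1 TPM (SD, n = 4). The log2 ratio of Casp4 to Casp1 was −1.25 and −1.19 in replicates 3 and 4, against −1.33 and −1.04 in replicates 1 and 2. The SD of 0.12 was the smallest of the 8 ratios taken. The genes are neighbours, Casp4 lying at chr9:5308828-5336783 (mm10), with Casp1 ending 1562 nt before Casp4 begins on the same strand. The main coding transcript Casp4-201, whose promoter is printed above, held 66.4% to 75.9% of the gene's TPM. Casp4-206, a coding transcript of 361 nt, held 26.6% and 28.2% in replicates 3 and 4, against 15.4% and 11.3% in replicates 1 and 2. Its share rested on 206.2 and 131.0 expected counts, against 41.4 and 43.2. The gene's TPM and its ratio to Casp1 include this short transcript. Transcripts annotated as noncoding or decay targets held 5.97% and 5.44% in replicates 3 and 4, against 8.64% and 18.8% in replicates 1 and 2.

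Gsdmd had 123.88 and 110.58 TPM in replicates 3 and 4, against 146.32 and 208.48 TPM in replicates 1 and 2, and the pairs did not overlap. In the second quantification they did, at 147 and 125 TPM in replicates 3 and 4, against 130 and 197 TPM in replicates 1 and 2. The mean was 147 ± 43.4 TPM (SD, n = 4), and the gene lies at chr15:75862327-75867408 (mm10, plus strand). The coding Gsdmd-201 took 76.9% and 80.7% of it in replicates 3 and 4, against 76.8% and 69.1% in replicates 1 and 2. Transcripts with a retained intron took 16.6% and 13.6% in replicates 3 and 4, against 14.6% and 25.8% in replicates 1 and 2. The second quantification put more there, 28.0% to 44.2%.

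In the order of means, 5 of the 9 neighbouring steps had the same sign in all 4 libraries with a mean log2 difference larger than its SD. The order came from these same 4 libraries, so the differences lean positive by construction and the steps are a description. These were Casp1 above Casp4 (1.20 ± 0.12, SD, n = 4), Gsdmd above Pycard (1.63 ± 0.88), Naip2 above Nlrp3 (0.71 ± 0.46), Naip5 above Mefv (0.46 ± 0.20) and Mefv above Nlrp1b (0.92 ± 0.45). The other steps did not exceed the spread: Casp4 to Gsdmd (0.04 ± 0.41), Pycard to Naip2 (0.10 ± 1.21), Nlrp3 to Naip5 (0.49 ± 0.49) and Nlrp1b to Nlrc4 (0.28 ± 0.54). Pycard stood below Naip2 in replicates 3 and 4 and above it in replicates 1 and 2.

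Ratios within a library set sensors, adaptor and effectors against each other. Of 8 listed pairs, 7 kept 1 sign in all 4 libraries. For those 7 the exact two-sided sign-flip permutation test reached the smallest p that 4 libraries allow, 2 of 16 sign assignments, which is an adjusted p of 0.143 (Benjamini-Hochberg over the 8 pairs), so no pair could reach 0.05. Nlrp3 exceeded Nlrc4 by 2.14 ± 0.39 and Nlrp1b by 1.86 ± 0.79 on the log2 scale (SD, n = 4). Naip2 exceeded Naip5 by 1.20 ± 0.19. Gsdmd stood below Casp1 by a log2 ratio of −1.24 ± 0.46. Casp1 exceeded Pycard by 3.88 in the mean of replicates 3 and 4, against 1.86 in the mean of replicates 1 and 2. The ratio of Pycard to Nlrp3 was 0.53 and −0.22 in replicates 3 and 4, against 1.40 and 1.51 in replicates 1 and 2, and was the pair without 1 sign (exact permutation p = 0.25). With Pycard-201 alone that ratio had a mean of −0.34 ± 0.28, an alternative chosen after seeing the data.

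**Figure D3:**
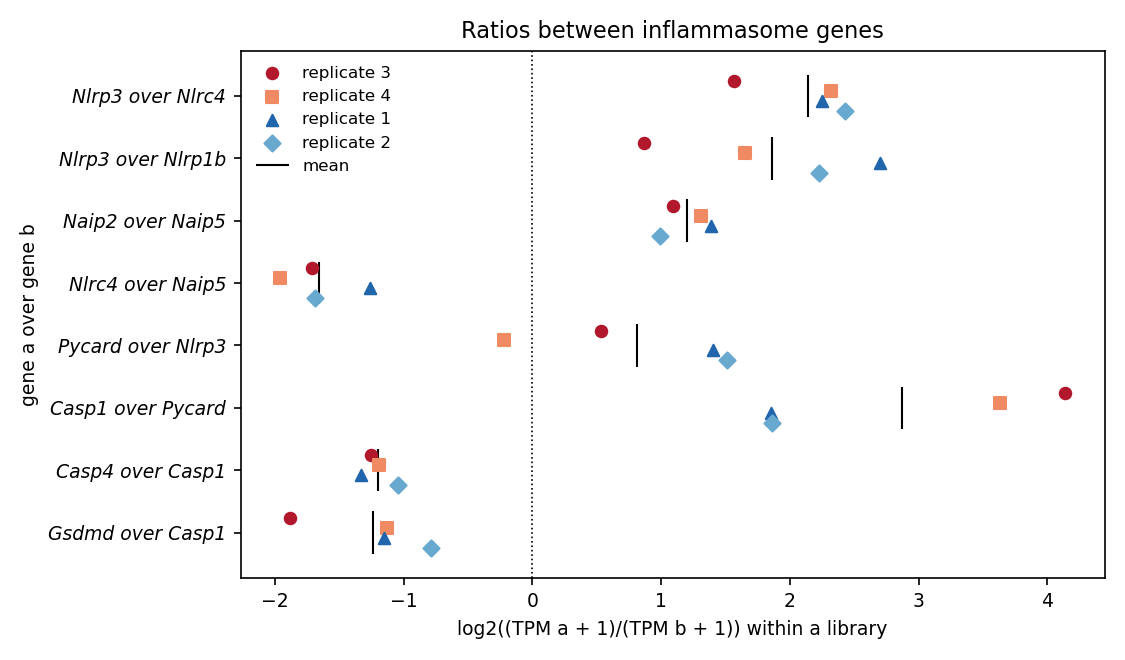
Log2 ratio of TPM (with 1 added to each) for 8 pairs of inflammasome genes in each library; points of replicates 3 and 4 lie above those of replicates 1 and 2 within a row, and the black line is the mean. Casp4 over Casp1 is the tightest row (SD 0.12), and the rows with Pycard split by library pair.

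Counts were then compared between the library pairs, replicates 3 and 4 over replicates 1 and 2, to see which of the 10 genes differ between libraries that the notes set apart. This is a comparison of libraries and not of conditions. edgeR's quasi-likelihood test called 696 of 11991 genes (5.80%) after adjustment at 0.05. Of these, 250 stood higher in replicates 3 and 4 and 446 stood lower. With offsets for GC content and length it called 511, of which 272 were higher and 239 lower. Of the 10 inflammasome genes, edgeR called 0, with 3 at an unadjusted p below 0.05 (Nlrp3, Pycard and Gsdmd), near the background of 28.5% of all tested genes (3415). DESeq2's Wald test called 2 (Nlrp3 and Pycard), beside 15.6% of all tested genes. Without replicate 3 or without replicate 4, edgeR called 0 genes in all, with 1955 and 1966 at an unadjusted p below 0.05. Without replicate 1 it called 177, with 3297 at an unadjusted p below 0.05.

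Of the fold changes, 7 were negative and 3 positive, with a median log2 value of −0.24, beside −0.01 and 50.9% negative over all tested genes. That median was −0.54 without replicate 3 and −0.06 without replicate 4. Nlrp3 had the largest, −0.79 ± 0.18 (SE), with an edgeR adjusted p of 0.0626 and a DESeq2 adjusted p of 0.01. Pycard followed at −0.63 ± 0.15 (edgeR adjusted p 0.0638, DESeq2 adjusted p 0.0206), and with offsets for GC content and length it was −0.34 ± 0.14. Nlrc4 had −0.48 ± 0.25 and Gsdmd −0.45 ± 0.16, with edgeR adjusted p of 0.262 and 0.139. Nlrp1b had 0.53 ± 0.24 (edgeR adjusted p 0.218), and Mefv −0.32 ± 0.20. Casp4 had −0.16 ± 0.30 and Casp1 0.04 ± 0.32. Naip2 and Naip5 had 0.00 to 2 decimals, with SEs of 0.18 and 0.15. In TPM, 5 of the 10 genes had library pairs that did not overlap (Nlrp3, Nlrc4, Mefv, Pycard and Gsdmd), beside 58.8% of the 10476 genes at 1 TPM or more in every library. The second quantification also had 5, but others (Nlrp3, Nlrp1b, Naip2, Naip5 and Pycard), beside 67.1% of 10778 genes, a comparison added after seeing the data. In each, the share of the 10 genes lay below the background, which with only 10 genes is not read as a trait of theirs. Of the 10 genes, 2 (Nlrp3 and Pycard) were apart in both. The share of mitochondrial counts and the depth, given above, moved with the same split. The ratio of total counts in the second quantification to those in the first did so too. It was 1.073 and 1.062 in replicates 3 and 4, against 1.314 and 1.324 in replicates 1 and 2. The part of each in these values was not tested.

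**Figure D4:**
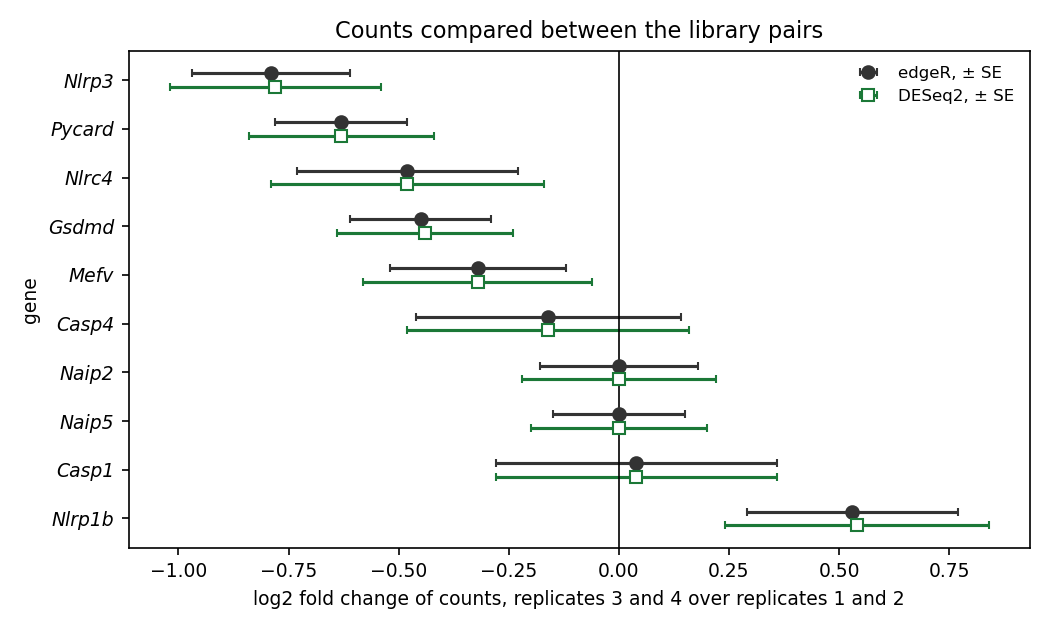
Log2 fold change of counts of each inflammasome gene, replicates 3 and 4 over replicates 1 and 2, from edgeR (filled) and DESeq2 (open), with bars of 1 SE. Nlrp3 at −0.79 and Pycard at −0.63 lie farthest below 0, Naip2 and Naip5 lie at 0, and Nlrp1b at 0.53 lies above it.

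The spread over all 4 libraries was also estimated without the split, as the biological coefficient of variation of counts. The gene-wise values are edgeR estimates drawn toward a trend over all genes, and not the observed spread. The common value over 11991 genes was 0.295, and 6 of the 10 genes had a value below the median gene. Naip5 had 0.184 (trend 0.238), lower than all but 0.734% of genes, and Naip2 had 0.198 (trend 0.246), lower than all but 8.79%. Nlrp3 had the highest of the 10, 0.28.

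The wider pathway was read from 5 lists, of 47 genes in all, of which 44 had a row, 35 were tested and 13 had a mean of at least 100 TPM. Naip7, Pydc3 and Pydc4 had no row. By edgeR 1 of the 35 was higher and 1 lower in replicates 3 and 4, beside 5.80% of all tested genes called, DESeq2 called 7 beside 15.6%, and the median log2 fold change was −0.21, beside −0.01 over all tested genes. The gene called lower was Il1b, the precursor that caspase-1 cuts, at 24.55 and 41.81 TPM in replicates 3 and 4, against 85.71 and 110.13 TPM in replicates 1 and 2 (log2 fold change −1.55 ± 0.26, SE, edgeR adjusted p 0.0389). The gene called higher was Kcnk6, a potassium channel that serves Nlrp3 activation, at 24.5 and 25.18 TPM in replicates 3 and 4, against 13.49 and 15.1 TPM in replicates 1 and 2 (0.81 ± 0.14, edgeR adjusted p 0.0411). In both genes the TPM of the pairs did not overlap, beside 58.8% of the genes at 1 TPM or more in every library. Over the alternatives the adjusted p of Il1b ran from 6.61e-11 to 0.222, and it was not called with offsets for GC content and length (edgeR adjusted p 0.0501) nor without replicate 1, 3 or 4 (0.0588, 0.201 and 0.222). That of Kcnk6 ran from 0.000694 to 0.222, and it was not called with any 1 replicate left out.

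Of 9 other sensors, 6 reached 1 TPM in all 4 libraries and none of the 6 tested was called by edgeR, beside 5.80% of all tested genes. DESeq2 called 4, beside 15.6% of all tested genes. The log2 fold changes of those 4 differed in sign, at 0.79 (Aim2), 0.54 (Zbp1), −0.59 (Nlrc5) and −0.99 (Nlrx1). In TPM the library pairs of Zbp1 and Nlrx1 did not overlap, beside 58.8% of the genes at 1 TPM or more in every library. Those of Aim2 overlapped, at 136.42 and 106.83 TPM in replicates 3 and 4, against 109.62 and 108.36 TPM in replicates 1 and 2. Those of Nlrc5 overlapped too, at 106.28 and 81.87 TPM, against 90.78 and 118.52 TPM. In the second quantification Aim2 did not overlap and Nlrc5 did. Zbp1, which binds nucleic acid in its Z form, led with 608 ± 91.6 TPM, followed by Aim2, the double-stranded DNA sensor, with 115 ± 14.1 TPM and Nlrc5, which drives class I gene transcription, with 99.4 ± 16.3 TPM. Zbp1 and Aim2 stood above all 6 sensors of the 10 genes in every library, the highest of which was Naip2 at 42.4 TPM. Nlrp9b was at 0 TPM in every library.

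Among 9 further effectors of cell death, 5 were tested and none was called by edgeR or DESeq2, beside 5.80% and 15.6% of all tested genes. Ninj1, which ruptures the membrane after gasdermin pores have opened, had 299 ± 60.1 TPM. Casp8, which can cut gasdermin D and drives apoptosis, had 117 ± 13.9 TPM. The gasdermin genes Gsdma, Gsdma2, Gsdma3 and Gsdmc had 0 TPM in every library, although the second quantification gave Gsdma2 0.157 to 1.30 TPM. Gsdme, of the same family, had 3.71 ± 1.31 TPM, a gene named after its values were seen.

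The 5 cytokine genes all had negative fold changes, beside 50.9% of all tested genes, and edgeR called Il1b, beside 5.80%. The log2 fold changes of Il18bp (−0.01 ± 0.24, SE) and Il1rn (−0.50 ± 0.54) were smaller than their SE, and Il1a had −0.45 ± 0.31. The TPM of Il1a overlapped, at 61.84 and 60.3 in replicates 3 and 4, against 52.14 and 120.77 in replicates 1 and 2. The antagonists were the abundant ones: Il18bp, which binds interleukin 18, had 422 ± 49.2 TPM, and Il1rn, the interleukin 1 receptor antagonist, had 364 ± 168 TPM. Il18 itself had 97.51 and 49.96 TPM in replicates 3 and 4, against 134.96 and 113.44 TPM in replicates 1 and 2, with a log2 fold change of −0.68 ± 0.36 (SE, edgeR adjusted p 0.271). These levels did not overlap, while those of the second quantification did.

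Of 16 regulators with a row, 14 reached 1 TPM in all 4 libraries, 7 reached a mean of 100 TPM, and 7 of the 14 tested had a negative fold change. Gbp2, a GTPase that coats bacteria and helps deliver lipopolysaccharide to caspase-11, led with 1032.1 ± 89.8 TPM. Gbp3, of the same family, had 282 ± 49.5 TPM and Trim30a, which restrains Nlrp3, had 275 ± 33.0 TPM. Trim31 was at 0 TPM in every library. Of the caspase paralogs, Casp12, next to Casp4 on chromosome 9, had 2.53 and 0.29 TPM in replicates 3 and 4, against 0.45 and 1.05 TPM in replicates 1 and 2.

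**Figure D5:**
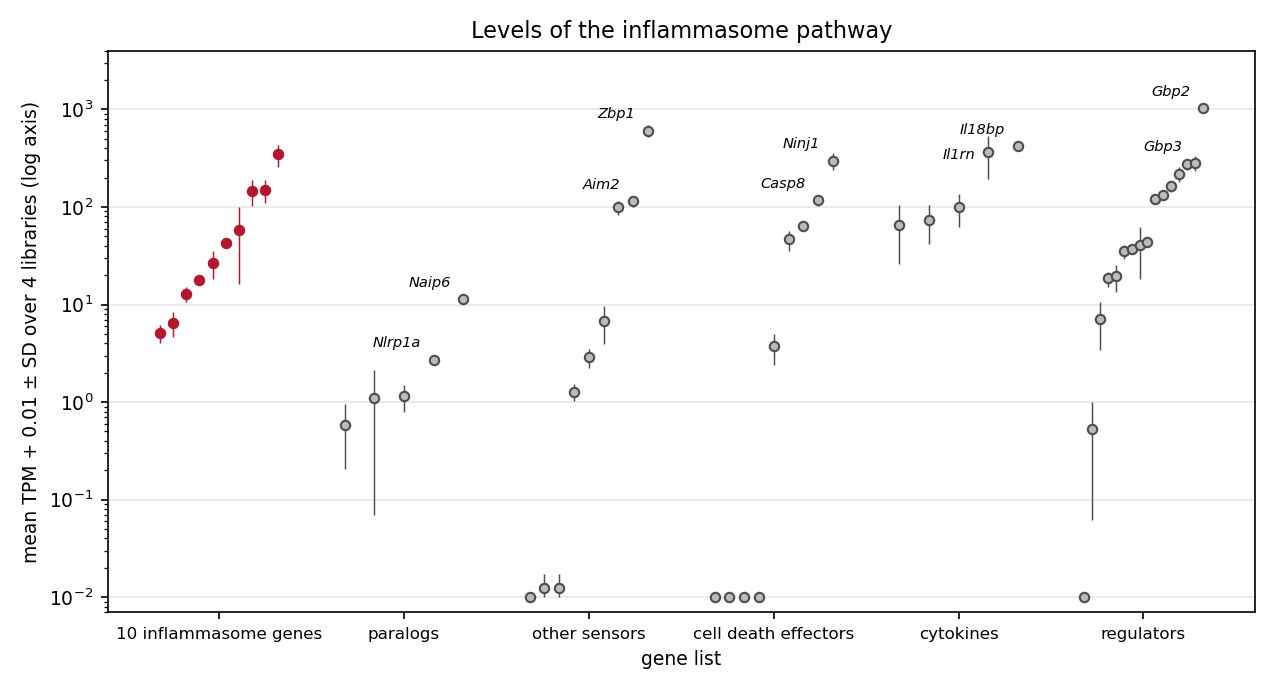
Mean TPM plus 0.01 over 4 libraries (log axis, bars of 1 SD ending at 0.01 at the lowest) of the 10 inflammasome genes and of 5 lists of pathway genes, 1 point per gene in order of level. Gbp2 at 1032.1 TPM and Zbp1 at 608 TPM are the highest points, and genes at 0 TPM lie on the lower edge.

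Genes with the closest level to a member in every library were named by the largest absolute log2 difference over the 4 libraries. For Nlrp3 these included Sephs2 (0.13), a selenophosphate synthetase, and Rnf128 (0.15), a ubiquitin ligase. For Casp1 they were Snx5 (0.19), a sorting nexin, Naca (0.20), a chaperone of nascent chains, and Iigp1 (0.26), an interferon-induced GTPase. For Gsdmd they were Snx10 (0.07), another sorting nexin, Saraf (0.17), a regulator of calcium entry, and Psmb3 (0.17), a proteasome subunit. With 4 libraries of 1 donor identifier, this is a description of levels.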

How the data were processed

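Expression of 10 inflammasome genes was read in 4 polyA RNA-seq libraries of 1 group. The deposited gene and transcript tables hold expected counts and TPM under RSEM's column names, and the deposited kallisto-layout transcript tables give estimated counts and TPM. Per the deposited notes, all were made on mm10 with GENCODE M21. The programs behind the tables were not given in the sources used here. The deposited counts carry no normalization, and per the file headers TPM are scaled for length within each library. Gene rows were joined to GENCODE by identifier (55536 genes), and 97 spike-in and 26248 tRNA rows were left out of library totals.

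Levels are gene TPM, as mean ± SD over libraries. Ratios are log2((TPM a + 1)/(TPM b + 1)), tested by exact sign-flip permutation over libraries. Expected counts were rounded and fitted with edgeR 4.0.16 under R 4.3.3 (TMM scaling, genes kept by filterByExpr at its minimum count of 10, the quasi-likelihood test, Benjamini-Hochberg threshold 0.05 over all tested genes), replicates 3 and 4 over replicates 1 and 2. The SE was derived from the fold change and its F statistic. DESeq2 1.42.0 was the alternative tool. The fit was tested on simulated counts with known changes. Shared words are 31-letter stretches of GENCODE transcripts that also occur, on either strand, in another gene's transcripts. Promoter windows came from RefSeq on GRCm38.p6, the mm10 build, with 12 windows for 9 of the 10 genes. Tables were handled with pandas 2.3.3 under Python 3.11.15 and plotted with matplotlib 3.10.9.

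The members, the gene lists, the pairs and the split were chosen with earlier results of these data known. Named genes were all 10 members; in each pathway list the 3 of highest mean TPM, those called and those at 0 TPM in every library; the NAIP and Nlrp1 paralogs and Casp12; and for Nlrp3, Casp1 and Gsdmd the 3 protein-coding genes closest in level. Some genes under this rule are not reported here. Others named were chosen after their values were seen.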

Additional observations from a re-analysis of the deposited data

Results flagged for a closer look

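A value was marked when 1 library lay far from the other 3, as the gap to its nearest neighbour over the whole range. Of 37 groups of 4 values examined, 2 were marked, and chance marks about 1 in 20. Aim2, the double-stranded DNA sensor, had 136.42 and 106.83 TPM in replicates 3 and 4, against 109.62 and 108.36 TPM in replicates 1 and 2, and the gap above took 0.906 of the range. Gbp3, a guanylate-binding protein, had 309.95 and 208.29 TPM in replicates 3 and 4, against 298.1 and 311.67 TPM in replicates 1 and 2, and the gap below took 0.869 of the range. None of the 10 inflammasome genes was marked.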

How the results depend on the processing

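The count of genes called between the library pairs was 696, and it moved to 2569 without a filter on low counts and to 1866 with DESeq2's Wald test. Both of these settings called 2 of the 10 inflammasome genes, Nlrp3 and Pycard, where edgeR with the filter called 0. Leaving out 1 replicate in turn gave 0 to 671 called genes and 0 inflammasome genes; it leaves 1 library alone, which is then assumed to vary like the others. Fold changes near 0 turned sign: Naip2 was 0.05 without the filter and −0.18 to 0.21 with a replicate left out; Naip5 was −0.03 with GC content and length offsets and −0.08 to 0.09 with a replicate left out; Casp1 was −0.07 with those offsets and −0.50 to 0.44 with a replicate left out; and Casp4 was −0.66 to 0.22 with a replicate left out. Others kept their sign but moved when a replicate was left out: Nlrc4 was −0.75 to −0.25, Nlrp1b 0.26 to 0.77 and Mefv −0.56 to −0.10. The ratio of Pycard to Nlrp3 was 0.81 and turned to −0.34 with Pycard's longer transcript, Pycard-201, alone. Under all alternatives together, 207 values kept their direction and their side of the threshold or moved by less than the spread between replicates. Of the other values, 10 were classed as moved, 11 as reversed in sign, 4 as stronger and 8 as weaker. The level of Nlrc4 moved to 6.67 TPM, of Naip2 to 37.1 TPM and of Naip5 to 16 TPM in the second quantification. The causes of these moves were not tested. No paired analysis was possible because the series has 1 group. Depth limits the genes at 0 TPM to statements about CPM below 0.0525 to 0.117.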
